A study of Mus musculus with 8 samples.

Results

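Iron-sulfur cluster assembly and mitochondrial iron import were followed through 9 genes: the mitochondrial iron importer Slc25a37, the core assembly genes Nfs1, Lyrm4 and Iscu, the chaperone pair Hscb and Hspa9, the transfer gene Glrx5 and the late-acting pair Isca1 and Isca2. They were chosen by name, as the probe sets that the platform annotation pairs with these symbols alone, and are 9 of the 19505 named genes measured. All 9 were found, each with 1 probe set. The samples were blood stem cells from the bone marrow of mice aged 6 to 10 weeks, sorted as lineage-negative cells that carry c-Kit, Sca-1 and CD150 but not CD48. In liquid culture with stem cell factor at 100 ng/ml and the antibiotic Primocin at 200 µg/ml, 4 samples received eltrombopag at 10 µg/ml and 4 received sterile water as vehicle, all for 16 h. Both groups carry the numbers 1 to 4 as biological replicates. The labels used here name no strain or genotype. They call the replicates biological but do not tie a number to particular mice. How far the spread that the p-values rest on reflects differences between mice cannot be told, and part of it may be technical.

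Iron-sulfur clusters are inorganic groups of iron and sulfide that proteins of the respiratory chain, the citric acid cycle, DNA replication and repair carry as working parts. They are built in mitochondria on the scaffold protein Iscu, from iron that enters through carriers such as Slc25a37 and from sulfur that the desulfurase Nfs1 takes from cysteine. Chaperones then pass the new cluster on to carrier proteins. Eltrombopag activates the human thrombopoietin receptor and is given to raise platelet counts. It does not activate the mouse receptor, and it also binds iron. The comparison asks whether transcripts of the assembly pathway differ in mouse stem cells after exposure to the drug.

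The arrays gave log2 expression values, 1 per probe set, in which a difference of 1 is a 2-fold change. Pearson correlations over all genes between any 2 arrays lay between 0.9868 and 0.9933. Kit, the gene for c-Kit, had values of 12.82 to 12.93 with eltrombopag and 12.83 to 12.94 with vehicle. Slamf1, the gene for CD150, ranged from 6.19 to 7.75 with eltrombopag and from 6.56 to 7.24 with vehicle, and Cd48 from 5.66 to 6.55 with eltrombopag and from 5.79 to 6.27 with vehicle. Ly6a, which encodes Sca-1, was not analysed here. Of 16 stem cell markers 14 were measured, with a mean log2 value of 8.70 to 9.08 with eltrombopag and 8.73 to 9.10 with vehicle. Exact permutation tests, two-sided, covered 10 array-level measures (the median, both quartiles and the mean of 7 marker lists). The smallest p of these tests was 0.229 (adjusted p 0.8), where 4 against 4 arrays can reach 0.0286. It belonged to the megakaryocyte markers (log2 difference 0.16), while the stem cell markers had 0.971. Little change in the first 3 of the 10 measures could be seen after RMA, which equalises the distributions. In lysates of sorted cells, fewer cells of one kind and less RNA per cell cannot be told apart.

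Promoter letters are shown for Glrx5 and Isca1, the carrier and the late-acting gene whose window in the RefSeq table ends at the outermost annotated start and holds a CCAAT box. Both are read 5′ to 3′ on the gene's strand, with the 150 bases before the start and with CCAAT or its reverse complement ATTGG in capitals. The Glrx5 window is chr12:105032468-105032617 (plus strand) and the Isca1 window chr13:59769790-59769939 (minus strand), both in GRCm38.p6.
Glrx5: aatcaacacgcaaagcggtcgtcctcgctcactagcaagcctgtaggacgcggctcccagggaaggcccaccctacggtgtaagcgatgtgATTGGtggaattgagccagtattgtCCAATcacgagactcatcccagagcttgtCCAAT
Isca1: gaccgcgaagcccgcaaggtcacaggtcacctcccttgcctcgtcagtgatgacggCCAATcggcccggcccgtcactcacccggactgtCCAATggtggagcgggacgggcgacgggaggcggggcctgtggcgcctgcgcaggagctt

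The RefSeq promoter table held windows for 5 of the 9 genes (Nfs1, Lyrm4, Glrx5, Isca1 and Isca2). Over the 250 bases before the start and on both strands, CCAAT occurred in 3 of the 5 windows (Glrx5, Isca1, Isca2), against 35% of 19143 windows of measured genes. The ETS motif CCGGAAG occurred in 3 of 5 (Nfs1, Isca1, Isca2), against 9.25%. TGCGCA, the core of the NRF1 motif, occurred in Isca1 alone of the 5, against 8.31%, and the GATA motif AGATAA in Isca2 alone, against 8.69%. No match of 1 motif overlapped a match of another in these windows. The motifs were chosen with the windows in view, and no factor or promoter was measured in this experiment.

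In none of the 9 genes did the difference between eltrombopag and vehicle exceed the spread between arrays. limma called 0 of them at an adjusted p under 0.05, and 0 had an unadjusted p under 0.05. Over all 19505 genes the same test called 0%, and 3.33% had an unadjusted p under 0.05. Eltrombopag arrays had the higher mean in 5 of the 9 genes and the lower one in 4. Among the 5 were Iscu and Isca1, whose differences lay below 0 once the arrays were set to equal medians (-0.0061 and -0.0069). The median of the 9 log2 differences was 0.003, against 0.0071 over all genes. The differences ran from -0.10 for Hscb to 0.07 for Slc25a37. The median absolute difference of the 9 was 0.037, against 0.083 over all genes, dimmer ones included. With adjustment over all genes, limma gave 0.9998 as the adjusted p of every one of the 9.

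**Figure D1:**
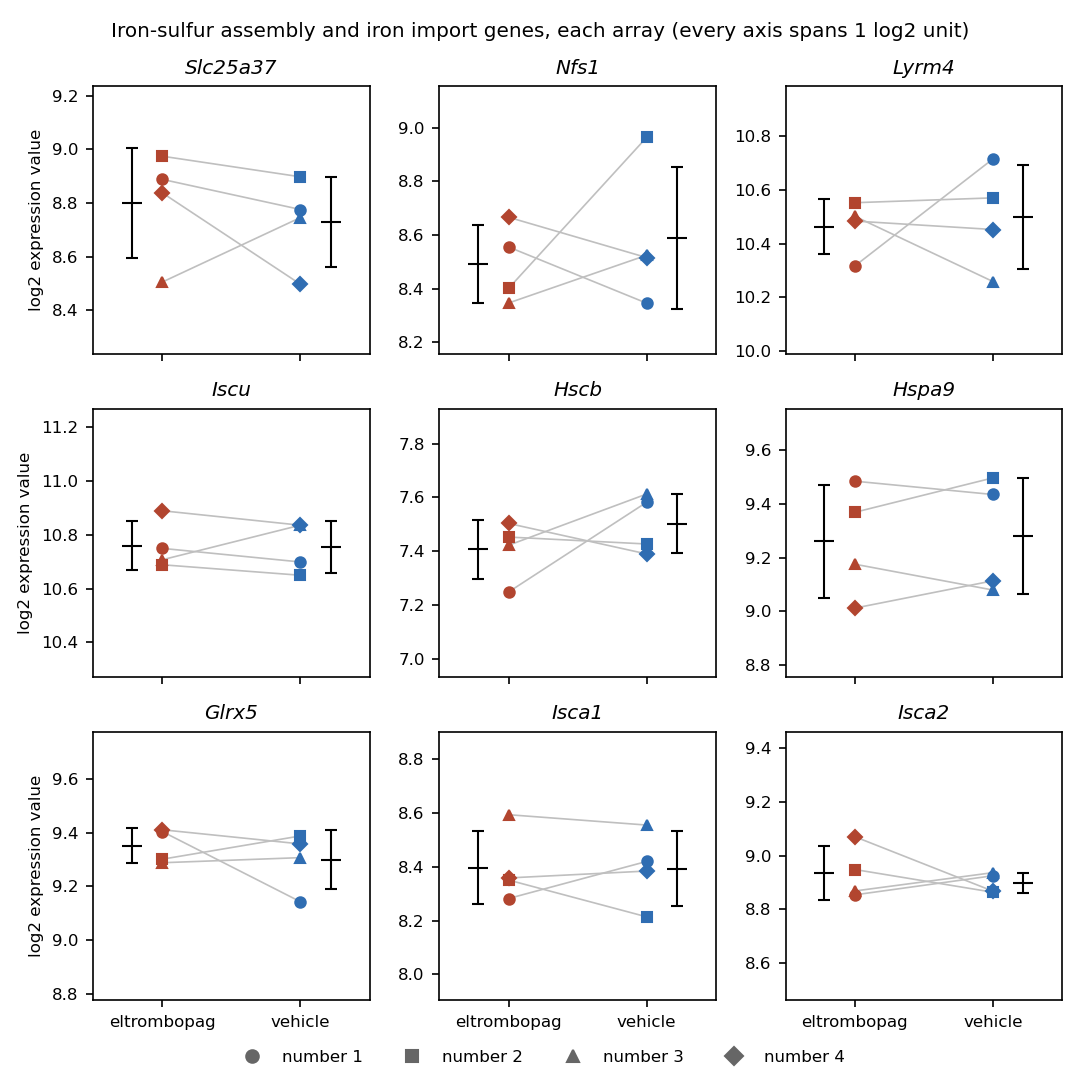
Log2 expression value (vertical axis, each spanning 1 log2 unit) of the 9 genes in every array, with eltrombopag on the left and vehicle on the right. Symbols give the replicate number, grey lines join arrays of the same number, and black bars give the mean and SD of the 4 arrays; the groups overlap in every panel, and in Hspa9 numbers 1 and 2 lie above numbers 3 and 4 in both groups.

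Slc25a37, also called mitoferrin 1, carries iron across the inner mitochondrial membrane and is best known for supplying heme synthesis in red cell precursors. Its log2 value was 8.89, 8.97, 8.51 and 8.84 in eltrombopag arrays 1 to 4, against 8.78, 8.90, 8.75 and 8.50 in vehicle arrays 1 to 4. The groups overlapped, and the lowest eltrombopag array (number 3) lay next to the lowest vehicle array (number 4). The mean was 8.80 ± 0.21 with eltrombopag and 8.73 ± 0.17 with vehicle (SD, n = 4 each). The log2 difference was 0.07 (SE 0.13, 95% interval -0.21 to 0.36), a 1.05-fold level. It was higher in 3 of 4 pairs of the same number. Without vehicle array 4 the difference was -0.005, so that 1 array decided its sign.

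Nfs1 is the cysteine desulfurase that releases the sulfur. Log2 values of Nfs1 were 8.56, 8.40, 8.35 and 8.67 in eltrombopag arrays 1 to 4, against 8.35, 8.96, 8.52 and 8.52 in vehicle arrays 1 to 4. Vehicle array 2 stood highest of all 8, and the other 7 overlapped. The mean was 8.49 ± 0.15 with eltrombopag and 8.59 ± 0.26 with vehicle (SD, n = 4 each), a log2 difference of -0.10 (SE 0.14, 95% interval -0.40 to 0.21). Without vehicle array 2 it was 0.03. Nfs1 had the widest interval of the 9 genes.

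Lyrm4, also called Isd11, is the small partner that keeps Nfs1 stable. Lyrm4 had log2 values of 10.32, 10.55, 10.50 and 10.48 in eltrombopag arrays 1 to 4, against 10.72, 10.57, 10.26 and 10.45 in vehicle arrays 1 to 4. The vehicle arrays held both the highest and the lowest value, and the eltrombopag arrays lay between them. The mean was 10.46 ± 0.10 with eltrombopag and 10.50 ± 0.19 with vehicle (SD, n = 4 each), a log2 difference of -0.04 (SE 0.12, 95% interval -0.29 to 0.22). By number, the difference was -0.40 in pair 1 and 0.24 in pair 3, opposite in sign.

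Iscu is the scaffold on which the cluster is built. For Iscu the log2 values were 10.75, 10.69, 10.71 and 10.89 in eltrombopag arrays 1 to 4, against 10.70, 10.65, 10.84 and 10.84 in vehicle arrays 1 to 4. The 2 groups covered nearly the same range. The mean was 10.76 ± 0.091 with eltrombopag and 10.75 ± 0.096 with vehicle (SD, n = 4 each), a log2 difference of 0.004 (SE 0.095, 95% interval -0.21 to 0.21). Its sign, like that of Isca1, changed when the arrays were set to equal medians. With quantile normalization both stayed above 0 (0.003 for Iscu and 0.001 for Isca1).

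Hscb and Hspa9 are the J-protein and the heat shock protein that together release the cluster from Iscu. Hscb had log2 values of 7.25, 7.45, 7.42 and 7.50 in eltrombopag arrays 1 to 4, against 7.58, 7.43, 7.61 and 7.39 in vehicle arrays 1 to 4. Its mean was 7.41 ± 0.11 with eltrombopag and 7.50 ± 0.11 with vehicle (SD, n = 4 each), a log2 difference of -0.10 (SE 0.10, 95% interval -0.32 to 0.13). Its groups overlapped and it was lower in 2 of 4 pairs. Without eltrombopag array 1, the lowest of the 8, the difference was -0.044. Hspa9, also called mortalin, had log2 values of 9.49, 9.37, 9.18 and 9.01 in eltrombopag arrays 1 to 4, against 9.44, 9.50, 9.08 and 9.11 in vehicle arrays 1 to 4. Its mean was 9.26 ± 0.21 with eltrombopag and 9.28 ± 0.22 with vehicle (SD, n = 4 each), a log2 difference of -0.02 (SE 0.14, 95% interval -0.33 to 0.29).

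Glrx5, a glutaredoxin, carries the finished cluster from the chaperones to its receivers. Its log2 value was 9.40, 9.30, 9.29 and 9.41 in eltrombopag arrays 1 to 4, against 9.14, 9.39, 9.31 and 9.36 in vehicle arrays 1 to 4. Vehicle array 1 was lowest and the other 7 lay close together. The mean was 9.35 ± 0.065 with eltrombopag and 9.30 ± 0.11 with vehicle (SD, n = 4 each), a log2 difference of 0.05 (SE 0.094, 95% interval -0.16 to 0.26). Without vehicle array 1 the difference was 2.2e-05.

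Isca1 and Isca2 act together late in the pathway, where the larger clusters, such as those of the respiratory chain, are made. Isca1 had log2 values of 8.28, 8.35, 8.59 and 8.36 in eltrombopag arrays 1 to 4, against 8.42, 8.21, 8.56 and 8.38 in vehicle arrays 1 to 4. Array 3 was the highest of its group on both sides. The mean was 8.40 ± 0.14 with eltrombopag and 8.39 ± 0.14 with vehicle (SD, n = 4 each), and the log2 difference was 0.003 (SE 0.11, 95% interval -0.24 to 0.25). Isca2 had log2 values of 8.85, 8.95, 8.87 and 9.07 in eltrombopag arrays 1 to 4, against 8.92, 8.86, 8.94 and 8.87 in vehicle arrays 1 to 4. Its mean was 8.94 ± 0.099 with eltrombopag and 8.90 ± 0.038 with vehicle (SD, n = 4 each), and its log2 difference was 0.04 (SE 0.09, 95% interval -0.16 to 0.24). Isca2 had the smallest pooled SD of the 9 genes, 0.075, and Nfs1 the largest, 0.213. The median over the 9 was 0.139, against 0.180 over all genes, dimmer ones included.

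The intervals bound how large a difference 4 eltrombopag and 4 vehicle arrays leave room for. The 95% interval lay within 1.5-fold of no difference for all 9 genes, against 88.0% of all genes, dimmer ones included. The bound farthest from no difference was 1.32-fold for Nfs1, 1.28-fold for Slc25a37 and 1.26-fold for Hspa9. It was 1.16-fold for Iscu and between 1.18-fold and 1.25-fold for Isca2, Isca1, Glrx5, Lyrm4 and Hscb. These intervals are not adjusted over genes and bound array values, not protein or cluster content. The groups of 4 did not overlap in 0 of the 9 genes, 0 higher and 0 lower with eltrombopag. Over all genes the share was 2.12%, with 218 genes higher (1.12%) and 195 lower. All 4 pairs had the same direction in 0 of the 9 genes, against 12.6% of all genes.

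**Figure D2:**
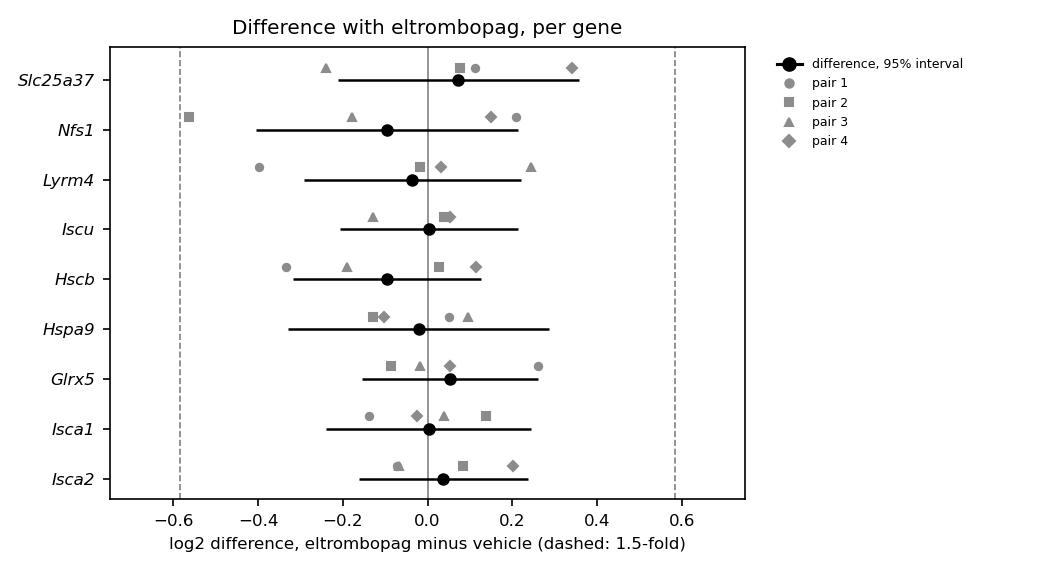
Log2 difference, eltrombopag minus vehicle, for each of the 9 genes (black points, with 95% intervals from limma as lines) and for each pair of arrays with the same number (grey symbols). The dashed lines mark 1.5-fold; every interval crosses 0 and stays inside them, while pair 2 of Nfs1 lies near the lower one at -0.56.

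The replicate numbers were compared in the same way. Over all genes, limma's F-test for the 4 numbers, with group as a term, called 41 genes (0.210%), and 10.2% had an unadjusted p under 0.05. It called 0 of the 9, and 1 of them, Hspa9, had an unadjusted p under 0.05 (0.0353, adjusted p 0.455 in limma). The mean of Hspa9 was 9.46 in number 1 and 9.43 in number 2, against 9.13 in number 3 and 9.06 in number 4, a range of 0.40 over the numbers. Its 4 arrays numbered 1 and 2 (9.37 to 9.50) lay entirely above its 4 arrays numbered 3 and 4 (9.01 to 9.18), which held for 1 of the 9 genes. Over all genes, 7.24% were split in this way in either direction. The corresponding range of number means was 0.31 for Slc25a37, 0.29 for Isca1, 0.25 for Nfs1 and 0.19 for Iscu, and it was smallest for Isca2 (0.080). The F-test takes the 2 arrays of a number as independent.

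**Figure D3:**
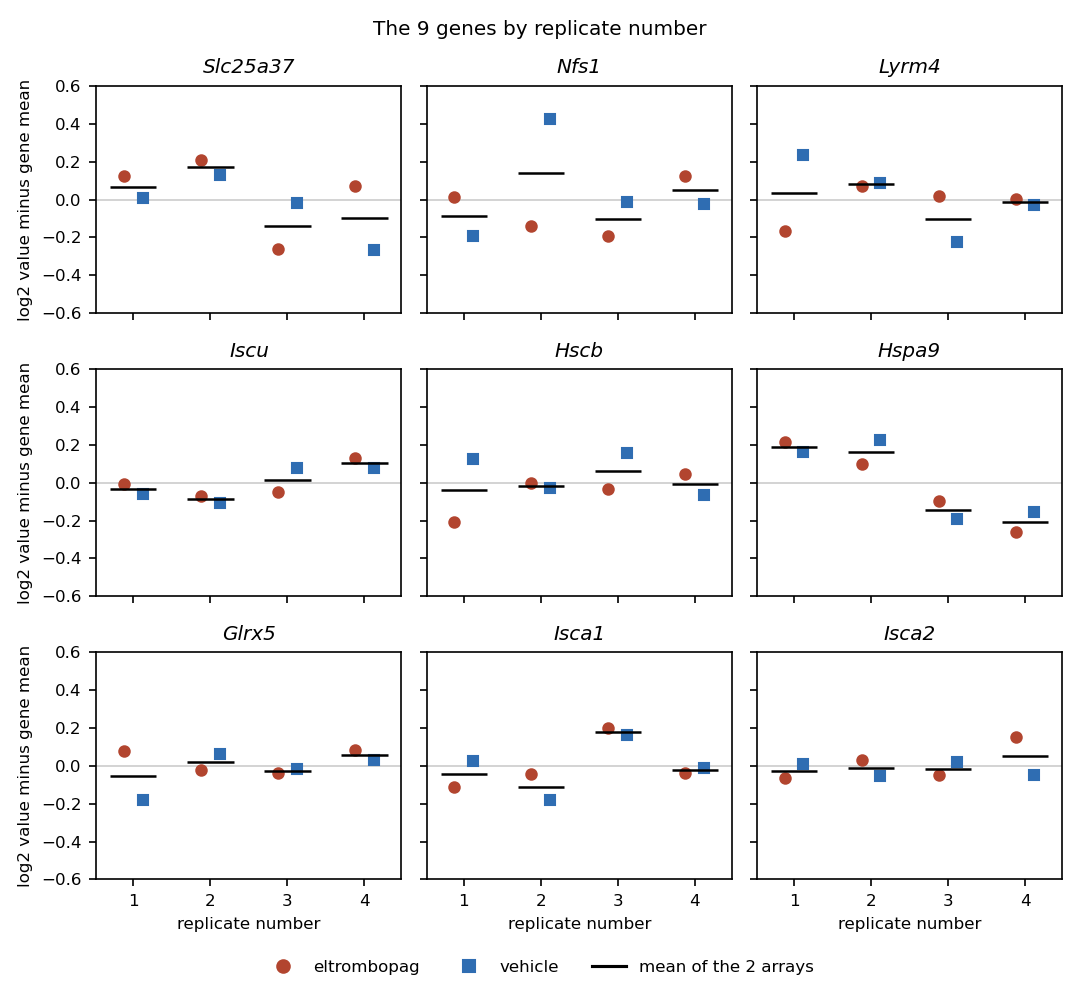
Log2 value minus the gene's mean over all 8 arrays, by replicate number, for eltrombopag (circles) and vehicle (squares); the black line is the mean of the 2 arrays of a number. In Hspa9 numbers 1 and 2 lie above 0 and numbers 3 and 4 below it in both groups, and in Isca1 number 3 lies above the other numbers.

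Within numbers 1 and 2 alone the log2 differences of the 9 genes ran from -0.21 (Lyrm4) to 0.09 (Slc25a37), 4 higher and 5 lower with eltrombopag. Within numbers 3 and 4 alone they ran from -0.04 (Hscb) to 0.14 (Lyrm4), 5 higher and 4 lower. The sign was opposite between these subsets in 3 of the 9 genes, Lyrm4, Iscu and Isca1, and limma called 0 of the 9 in either.

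From array to array, pairs of the 9 genes moved both together and apart. After the group means were subtracted, the Pearson correlation over the 8 arrays was above 0 in 19 of the 36 pairs of genes, with a median of 0.068. The highest was 0.81 for Nfs1 and Glrx5, and the lowest was -0.83 for Iscu and Hspa9, so arrays with high Hspa9 had low Iscu. These are descriptions over 8 arrays that share 4 numbers and 1 normalization.

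Among 19504 other genes, the 3 whose values were most like those of Iscu by the same measure were Itga2, an integrin that binds collagen (r = 0.98), Esam, an adhesion protein of endothelial and stem cells (r = 0.98), and Ptpn18, a tyrosine phosphatase (r = 0.98). For Slc25a37 they were Ankrd49, Tlk2, a kinase of chromatin assembly, and Fam122a (r = 0.98 each). With 8 arrays many genes reach such values: 77 genes were above 0.9 with Iscu and 89 with Slc25a37.

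Slc25a37 is an erythroid gene as well, so the erythroid markers are given beside it. Of 15 such markers 9 were measured, and their mean log2 value was 6.59 to 7.27 with eltrombopag and 6.63 to 6.98 with vehicle (difference 0.12, exact permutation p 0.543). Taken singly, 8 of the 9 were higher with eltrombopag and 1, Alas2, was lower, where 52.3% of all genes were higher. The 9 come from the same 8 arrays and are not separate evidence. Their log2 differences had a median of 0.11, and limma called 0 of them. Alas2, which makes the first intermediate of heme in red cell precursors, was 7.70, 7.51, 9.30 and 8.95 in eltrombopag arrays 1 to 4, against 7.87, 8.03, 8.91 and 8.85 in vehicle arrays 1 to 4. Klf1, an erythroid transcription factor, differed by 0.02 and the erythropoietin receptor Epor by 0.34 (SE 0.14), with an unadjusted p of 0.0283 and an adjusted p of 0.9998 in limma. Across replicate numbers, limma's F-test called 1 of the 9 erythroid markers, Epb42 (adjusted p 0.0416), against 0.210% of all genes. Alas2 was not called there (adjusted p 0.117 in the same F-test). An unadjusted p under 0.05 was found for 4 of the 9 erythroid markers (10.2% of all genes). Alas2 averaged 7.79, 7.77, 9.10 and 8.90 in numbers 1 to 4, against 8.83, 8.94, 8.63 and 8.67 for Slc25a37. The part of other cells in the Slc25a37 values was not tested.

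Outside the 9 genes, 63 of 73 listed genes of the wider pathway were measured, and limma called 0 of them in either direction. An unadjusted p under 0.05 was found for 2 of the 63 (3.33% of all genes), and 44 of the 63 were higher with eltrombopag (52.3% of all genes), with a median log2 difference of 0.047. The groups did not overlap in 2 of the 63, against 2.12% of all genes in either direction. These were Nfu1 and Abcb8, both higher with eltrombopag (1.12% of all genes were higher in this way). Each gene of the wider pathway named here had an adjusted p of 0.9998 in limma.

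All 6 measured genes of mitochondrial iron and cluster transport other than Slc25a37 were higher with eltrombopag, none past the test, with a median log2 difference of 0.13. Slc25a28, or mitoferrin 2, is the iron importer of cells outside the red cell line. Its log2 value was 10.42, 10.69, 10.80 and 10.75 in eltrombopag arrays 1 to 4, against 10.64, 10.40, 10.44 and 10.33 in vehicle arrays 1 to 4. Pair 1 was lower with eltrombopag and the other pairs higher, and the difference was 0.21 (SE 0.12, 95% interval -0.04 to 0.47). Within numbers 1 and 2 it was 0.03 and within numbers 3 and 4 it was 0.39. Abcb10, which steadies mitoferrin 1 in the membrane, differed by 0.04 (SE 0.13). Abcb8, a mitochondrial transporter chosen here after its values were seen, was 9.31 to 9.51 with eltrombopag and 9.09 to 9.30 with vehicle, a difference of 0.20 (SE 0.096, unadjusted p 0.0615).

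Late assembly showed the other gene whose groups did not overlap. Nfu1 delivers clusters to lipoate synthase and respiratory complexes. Its log2 value was 10.20, 10.28, 10.18 and 10.17 in eltrombopag arrays 1 to 4, against 10.00, 9.99, 10.02 and 10.03 in vehicle arrays 1 to 4. Every eltrombopag array lay above every vehicle array, and the difference was 0.20 (SE 0.083, 95% interval 0.01 to 0.38), a 1.15-fold level, with an unadjusted p of 0.0379. Its adjusted p with the replicate number as a block was 0.984, so it did not pass there either. Of the 5 late genes 4 were higher (median 0.069). Iba57, the partner of Isca1 and Isca2, differed by 0.05 (SE 0.18), Bola3 by 0.08 (SE 0.14) and Nubpl, which serves complex I, by -0.14 (SE 0.11).

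The remaining groups had medians between -0.002 and 0.063. Of 5 early partners 4 were higher (median 0.043): Grpel1, the exchange factor of Hspa9, differed by 0.16 (SE 0.11), and Ndufab1, the acyl carrier protein that binds Lyrm4, by -0.005 (SE 0.13). Of 8 cytosolic assembly genes 5 were higher (median 0.056), with 0.09 for Ciao1 (SE 0.13), -0.12 for Mms19 (SE 0.18), which hands clusters to DNA polymerases and helicases, and -0.08 for Ciapin1 (SE 0.13). Of 14 mitochondrial proteins that carry a cluster 11 were higher (median 0.063), with 0.14 for lipoate synthase Lias (SE 0.12) and -0.04 for ferrochelatase Fech (SE 0.10), which completes heme. Of 20 cytosolic and nuclear ones 10 were higher (median -0.002). In this group Brip1, a repair helicase chosen here after its values were seen, was 8.18 to 8.50 with eltrombopag and 8.42 to 9.03 with vehicle, a difference of -0.36 (SE 0.15, unadjusted p 0.0363).

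Iron regulation links clusters to iron supply, since the protein of Aco1 works as an aconitase while it holds a cluster and binds the mRNAs of iron genes when it has lost it. Aco1 had log2 values of 8.10, 8.10, 8.46 and 8.54 in eltrombopag arrays 1 to 4, against 8.42, 8.25, 8.44 and 8.59 in vehicle arrays 1 to 4, a difference of -0.12 (SE 0.13). Ireb2, the second such regulator, had 7.65, 7.46, 7.86 and 7.72 in eltrombopag arrays 1 to 4, against 6.64, 7.84, 7.73 and 7.39 in vehicle arrays 1 to 4. Its difference of 0.27 (SE 0.23) rested on vehicle array 1, and without that array it was 0.02. Among the mRNAs these regulators bind, Tfrc, the transferrin receptor, differed by 0.002 (SE 0.12) and the ferritin chain Fth1 by 0.007 (SE 0.094). In the iron-regulation list, which holds Ireb2, Fbxl5, Tfrc, Fth1 and Ftl1 but not Aco1 (counted among the cytosolic and nuclear cluster proteins), 4 of 5 were higher (median 0.007).

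**Figure D4:**
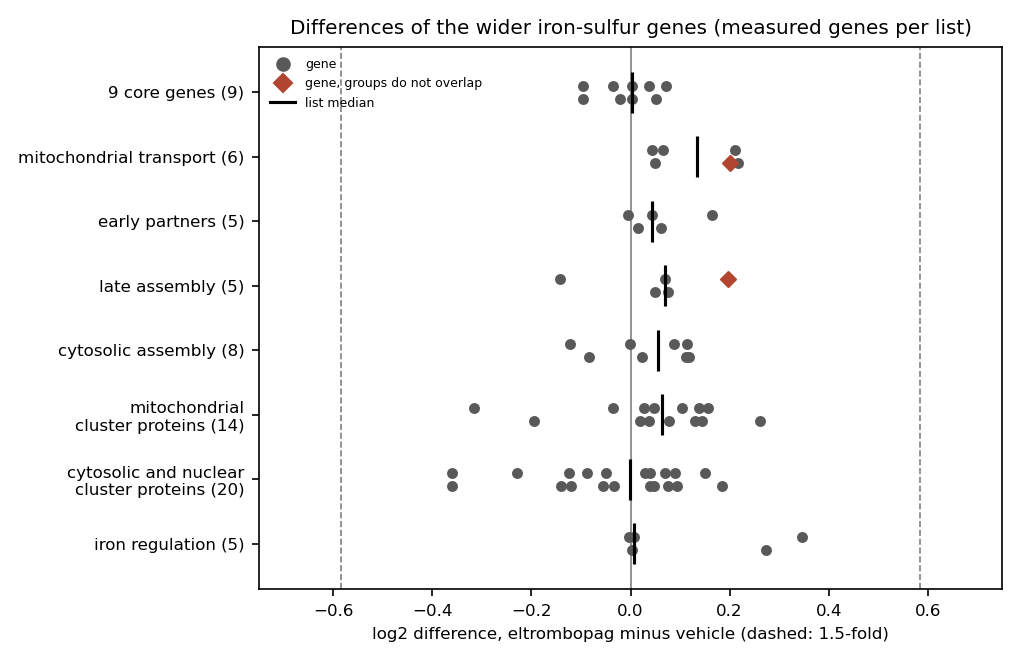
Log2 difference, eltrombopag minus vehicle, of each measured gene in the 9-gene core and in 7 lists of the wider pathway (number of measured genes in parentheses), with the list median as a black line and 1.5-fold as dashed lines. The 9 core genes lie between -0.10 and 0.07; the red diamonds, Abcb8 and Nfu1 at 0.20 each, are the genes whose groups do not overlap.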

How the data were processed

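RNA of sorted, cultured mouse stem cells was amplified from about 10 ng and biotin-labelled with a 3′ kit for Affymetrix arrays, per the labels' protocols. The authors deposited 1 log2 expression value for each probe set and array. RMA, oligo and limma stand, unversioned, in the submitters' processing notes. RMA removes absolute differences in RNA content between arrays. The genome build: not given in the sources used here. Signal over background is not part of these values, and the number of arrays limits the precision.

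Of 22206 probe sets, 19572 had 1 symbol, 0 several and 2634 none; the highest-mean probe set stood for each of 19505 genes, 55 of which had several. No filter on dim genes was set. No 2 arrays held an equal value (0 matches, tolerance 0). limma 3.58.1 in R 4.3.3 (lmFit, eBayes, group as the only term, two-sided) ran on all genes with Benjamini-Hochberg adjustment; genes with an adjusted p under 0.05 were called. A second fit tested the 4 replicate numbers (F-test) with group as a term. Both were tested on simulated data. Apart from planted changes the simulated arrays were independent, so the likeness of arrays with the same number was left out. That test checks the fits and does not bear on the counts reported here. Groups and numbers came from the titles. Over all probe sets, deviations from the group means correlated at 0.241, 0.294, 0.192 and 0.142 between arrays of the same number (1 to 4). All were over 0.1, so equal numbers were treated as pairs, on the evidence of the values alone. The pairs enter the pair differences and the alternatives with a block. The main fit, with its SEs and intervals, does not use them. Unequal numbers also passed 0.1: eltrombopag 3 with vehicle 4 (0.171) and eltrombopag 4 with vehicle 3 (0.168). Both exceeded the value of number 4, so the values do not single out pairs 3 and 4. Promoter sequences and motif windows are RefSeq's (GRCm38.p6).

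The 9 genes, the wider lists and the tests were chosen with earlier results of these data known. Named were the 9 genes, a set of partners, regulators and markers fixed by name, and the 3 genes most like Iscu and Slc25a37; some genes of that set are not reported here. Alternatives were 20 other settings: the number as a block, as a random effect or as a partial block, subsets of the numbers, each array left out, a filter, 2 further scalings, array weights, another variance model and another probe set per gene.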

Additional observations from a re-analysis of the deposited data

How the results depend on the processing

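None of the 20 alternatives called any gene between the groups (0 calls in each), be it among all genes (304 to 945 at an unadjusted p under 0.05, against 650), among the 9 genes (0 unadjusted in each) or in the wider pathway (0 to 4 unadjusted). With the replicate number as a block 0 genes were called, with 904 at an unadjusted p under 0.05, and the block changed no call. The SE fell with the block in some of the 9 genes (Hspa9, 0.139 to 0.091). In others it rose (Nfs1, 0.140 to 0.142). Across replicate numbers, 0 of the 9 genes were called in all 6 alternatives, while the count over all genes was 40 to 42 in 5 of them and 198 in place of 41 with a trended, robust variance; the cause was not tested. Hscb and Glrx5 kept their sign in all 20 settings, though not their size, and the other 7 changed sign in at least 1, all from differences within 1 SE of 0. Iscu was -0.037 in numbers 3 and 4 only, -0.0061 with equal medians and -0.012 with array weights. Isca1 was -0.00055 in numbers 1 and 2 only, -0.0089 without both arrays numbered 3, -0.0069 with equal medians and -0.0045 with array weights. Lyrm4 was 0.14 in numbers 3 and 4 only and 0.010 with array weights, and Hspa9 was 0.0097 with array weights. The cause was not tested. When single arrays were dropped, Iscu lay between -0.040 and 0.031, Nfs1 between -0.18 and 0.030, Lyrm4 between -0.12 and 0.036, Hspa9 between -0.096 and 0.062, Isca1 between -0.063 and 0.057, Isca2 between -0.0081 and 0.064, Slc25a37 between -0.0050 and 0.17, Hscb between -0.13 and -0.044 and Glrx5 between 2.2e-05 and 0.082.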

Other observations

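In 32 genes (the 9 genes and the partners, regulators and markers named by rule) the highest and lowest array of each group was set against the spread of that group, which makes 64 groups of 4. There were 0 outlying arrays by Dixon's criterion, where chance gives about 3.2 (about 1 group in 20).

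A few further genes of the wider pathway were picked once values were known, and none passed (adjusted p 0.9998 in limma for each). Cisd1, or mitoNEET, an outer mitochondrial membrane protein with a cluster, averaged 9.62 with eltrombopag and 9.36 with vehicle, a log2 difference of 0.26 (SE 0.12). Fbxl5, the iron-sensing ligase that degrades the protein of Ireb2, averaged 7.44 with eltrombopag and 7.09 with vehicle, a difference of 0.35 (SE 0.17). Ndufs1, the subunit of respiratory complex I that holds several clusters, averaged 7.42 with eltrombopag and 7.73 with vehicle, a difference of -0.32 (SE 0.16).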
